A study of Sus scrofa with 15 samples.

Results

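The condensin and topoisomerase II genes described here are *SMC2*, *SMC4*, *NCAPD2*, *NCAPG*, *NCAPH*, *NCAPD3*, *NCAPG2*, *NCAPH2*, *TOP2A* and *TOP2B*, taken by symbol from the 22516 genes of the pig gene table. All 10 had an Ensembl gene identifier in that table and all 10 were among the 13224 genes that passed the filter on low counts. Poly(A) RNA was sequenced from 15 libraries, 5 of GV, 5 of MII and 5 of ‘damaged’ oocytes, each made from a pool of oocytes out of 1 of 5 independent collections of sow ovaries. GV (germinal vesicle) oocytes came straight from fresh follicles without culture. MII (metaphase II) oocytes came from cumulus oocyte complexes matured *in vitro* for 44 h and had a first polar body, while ‘damaged’ oocytes went through the same 44 h and had none. Hyaluronidase took the cumulus cells off the oocytes of all 3 groups, and the labels give no breed, age or genotype of the sows. Both matured groups thus share the culture, its gonadotrophins and the elapsed time, and the effects of these cannot be told apart when either group is compared with GV oocytes. ‘Damaged’ is a label for a missing polar body at 1 time point and no other test of damage was used to choose these oocytes.

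Condensins are ring-shaped protein complexes that pull chromatin into loops and so shorten and stiffen chromosomes for division. SMC2 and SMC4, the paired ATPases, are shared by both forms of the complex. Condensin I adds NCAPD2, NCAPG and the kleisin NCAPH, which closes the ring, and condensin II adds the related NCAPD3, NCAPG2 and NCAPH2. In dividing cells condensin II is present in the nucleus, whereas condensin I reaches the chromosomes after the nuclear envelope breaks down. Topoisomerase II passes 1 DNA duplex through a transient break in another and so removes tangles between chromatids. TOP2A is the form that dividing cells rely on, and TOP2B is also made by non-dividing cells. In mouse oocytes, condensins keep the meiotic chromosomes compact and stiff.

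The sum of estimated counts lay between 6.40 M and 23.6 M per library. GV replicate 3, with the lowest total, was left out of all values below unless all 5 GV libraries are named, so GV has n = 4, MII n = 5 and ‘damaged’ n = 5. Of the 15 columns of the deposited gene table, 7 add up to the total of a differently labelled transcript file, mostly one of another group. The labels of the transcript files were used for all libraries, and all results depend on them. Both files name 8 libraries alike (2 GV, 3 MII and 3 ‘damaged’). Gene calls against GV and some isoform and ratio results are also given for these 8 libraries. Levels are given as CPM (counts at a common library size) after TMM normalisation, which rescales each library so that most genes keep their level. On this scale, the middle gene of all those tested had a log2 fold change of -0.17 in MII against GV and -0.14 in ‘damaged’ against GV. With library sizes alone it had -1.09 and -1.01, and every member's log2 fold change against GV was also about 1 unit lower. The counts are relative to each library's total, so a change in a gene's RNA and an opposite change in all other RNA cannot be told apart, and neither can fewer cells of a type and less RNA per cell. Because poly(A) RNA was sequenced, a change in a transcript's amount and a change in its poly(A) tail cannot be told apart either. According to the study, transcription stops when oocytes resume meiosis. A gene that rose or fell here did so in the poly(A) RNA measured. Of 13 oocyte markers, 12 were measured. They were present in each library and summed to 11522 to 13737 CPM in GV, 7913 to 10945 CPM in MII and 8874 to 11381 CPM in ‘damaged’ libraries. Of 19 cumulus and granulosa cell markers, 12 were measured, and they summed to 156 to 298, 796 to 1056 and 763 to 972 CPM. *VCAN*, a matrix proteoglycan, made up most of this sum in the MII libraries, with 197 ± 62.1 CPM (SD, n = 4) in GV and 904 ± 102 CPM (SD, n = 5) in MII libraries. The 4 defining cumulus markers measured (*FSHR*, *AMH*, *HAS2* and *TNFAIP6*) summed to 0.569 to 2.57, 0.227 to 3.56 and 0.255 to 0.666 CPM, and *AMH* was at 0 in each MII library. On the TMM scale, 1 oocyte marker rose and 6 fell in MII against GV (1 and 7 in ‘damaged’), with -4.64 for *ZAR1*, -4.43 for *ZP3* and -3.24 for *FIGLA* at the low end and 1.22 for *H1-8*, -0.79 for *DDX4* and -1.39 for *NLRP5* at the high end of those called. Of the 5 cumulus markers abundant enough to test, 3 rose and 0 fell with limma in both comparisons, *VCAN* by 2.24, *FST* by 1.47 and *PTGS2* by 1.26 in MII. On library sizes, 0 oocyte markers rose and 11 fell in MII with limma (1 and 11 in ‘damaged’), and 2 cumulus markers rose (*VCAN* and *FST*) and 2 fell in both comparisons. Of all genes tested, 28.2% rose and 34.2% fell in MII on the TMM scale at an FDR under 0.01 (28% and 33.4% in ‘damaged’). On library sizes these shares were 10.9% and 57.5% (11.2% and 56% in ‘damaged’). The part of cumulus RNA in the differences between stages was not tested further.

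Compared per length within a library, the 10 genes spanned a wide range of levels. In GV oocytes, *TOP2B* had the highest level with 234 ± 19.8 TPM (TPM is the level per length within a library, SD, n = 4). *SMC4* (155 ± 18.1 TPM), *NCAPG* (147 ± 13.4 TPM) and *NCAPH* (142 ± 26.8 TPM) followed, and the ranges of neighbours in this trio overlapped. *SMC2* with 80.0 ± 6.56 TPM and *TOP2A* with 41.7 ± 2.92 TPM came next, each apart from its neighbours. The other condensin I subunit and the condensin II subunits were far lower, with 9.09 ± 1.43 TPM for *NCAPG2*, 6.08 ± 3.11 TPM for *NCAPD3*, 4.11 ± 0.297 TPM for *NCAPD2* and 2.96 ± 1.30 TPM for *NCAPH2*, and each overlapped the next. In MII oocytes, the order by level was *TOP2B* (524 ± 89.8 TPM), *NCAPG* (266 ± 11.6 TPM), *SMC4* (160.3 ± 21.1 TPM), *SMC2* (158 ± 12.5 TPM), *TOP2A* (102 ± 15.1 TPM) and *NCAPH* (27.3 ± 13.0 TPM). *NCAPG2* (7.53 ± 1.55 TPM), *NCAPD3* (2.08 ± 0.544 TPM), *NCAPD2* (1.38 ± 0.325 TPM) and *NCAPH2* (0.271 ± 0.141 TPM) closed it. Ranges of neighbours overlapped for *SMC4* and *SMC2* and for *NCAPD3* and *NCAPD2*, and all other neighbours were apart. ‘Damaged’ oocytes had the same order and the same overlaps.

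In MII against GV oocytes, 6 of the 10 genes rose at an FDR under 0.01, namely both SMC subunits, *NCAPG*, *NCAPG2*, *TOP2A* and *TOP2B*, and the kleisins *NCAPH* and *NCAPH2* fell. Of all genes tested, 28.2% rose and 34.2% fell by this rule. As DEGs, with an absolute log2 fold change over 2 besides, *SMC2*, *TOP2A* and *TOP2B* rose and *NCAPH2* fell, against 4.51% of all genes that rose and 17% that fell. *SMC2* was close to this threshold, with a log2 fold change of 2.03 in MII and 1.87 in ‘damaged’ against GV. With 1 library left out in turn, it had 1.97 to 2.14 in MII, and 2 to 3 genes were DEGs that rose. Every MII library lay above every GV library for 5 genes and below for 3, against 27% and 33% of all genes. The 10 genes had a median log2 fold change of 0.92, against -0.17 for all genes. In ‘damaged’ against GV oocytes, the same 6 genes rose and the same 2 fell, where 28% of all genes rose and 33.4% fell. *TOP2A* and *TOP2B* were DEGs that rose and *NCAPH2* one that fell (4.08% and 16.4% of all genes), and the 10 genes had a median of 0.87, against -0.14 for all genes. Every ‘damaged’ library lay above every GV library for 6 genes and below for 3, against 26.6% and 31.8% of all genes. Both comparisons share the GV libraries, so they are not independent.

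The scaling sets how many of these genes count as higher. On library sizes alone, 4 of the 10 genes rose (*SMC2*, *NCAPG*, *TOP2A* and *TOP2B*) and 4 fell (*NCAPD2*, *NCAPH*, *NCAPD3* and *NCAPH2*) in both comparisons, where 10.9% of all genes rose and 57.5% fell in MII and 11.2% and 56% in ‘damaged’ oocytes. No member was a DEG that rose on that scale, and *NCAPH* and *NCAPH2* were DEGs that fell, where 0.363% of all genes rose and 29.4% fell as DEGs in MII and 0.333% and 27.8% in ‘damaged’ oocytes. *SMC2*, *NCAPG*, *TOP2A* and *TOP2B* thus rose, and *NCAPH* and *NCAPH2* fell, on both scales. With the 8 libraries that both files name alike, *NCAPG2* no longer passed in either comparison (log2 fold change 0.62, FDR 0.0644 in MII and 0.68, FDR 0.0456 in ‘damaged’ oocytes), and the other calls at an FDR under 0.01 were as above. This alternative was chosen after seeing the data.

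**Figure D1:**
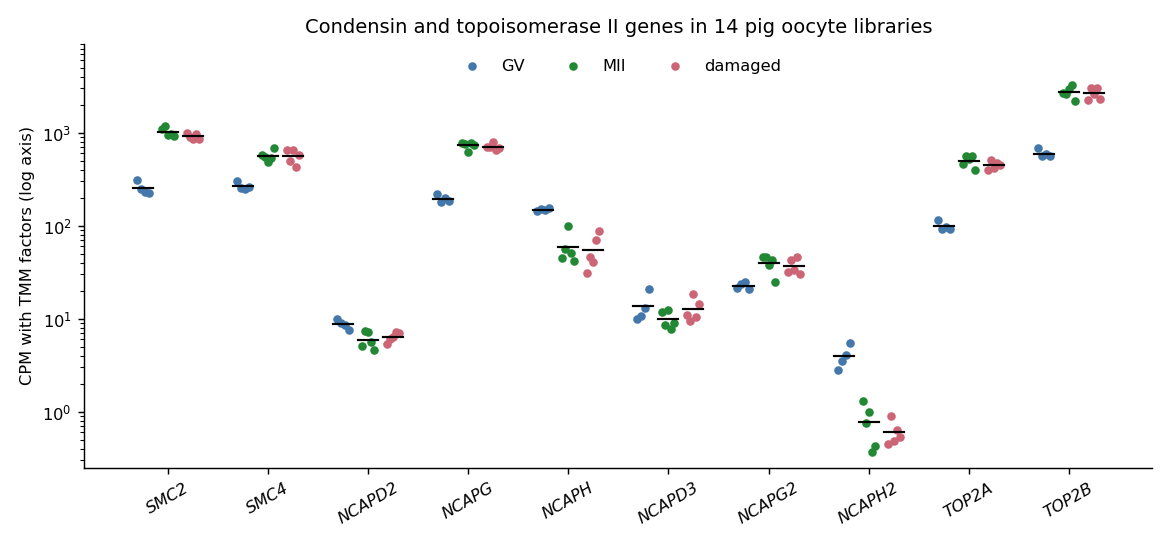
Level of each gene in CPM with TMM factors (y axis, log scale) in 4 GV (blue), 5 MII (green) and 5 ‘damaged’ (red) libraries, with 1 point per library and a black bar at the group mean. MII and ‘damaged’ points sit above GV for *SMC2*, *SMC4*, *NCAPG*, *TOP2A* and *TOP2B* and below GV for *NCAPD2*, *NCAPH* and *NCAPH2*, and they overlap each other for every gene.

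The shared ATPase *SMC2* (ENSSSCG00000005403, chromosome 1, 245409559 to 245459032, Sscrofa11.1) had 307, 251, 228 and 223 CPM in GV replicates 1, 2, 4 and 5. In MII replicates 1 to 5 it had 1092, 1176, 949, 977 and 922 CPM, and in ‘damaged’ replicates 1 to 5 981, 903, 864, 967 and 859 CPM. The lowest matured library was thus well over the highest GV library. The level rose 4.07-fold in MII (log2 fold change 2.03 ± 0.12, SE, FDR 3.7e-11) and 3.65-fold in ‘damaged’ oocytes (1.87 ± 0.12, FDR 1.1e-10). Its partner *SMC4* (ENSSSCG00000011731, chromosome 13, 100078149 to 100120907) had 300.4, 253, 248 and 258 CPM in GV, 582, 541, 488, 532 and 690.4 CPM in MII and 655, 499.7, 648, 425 and 582 CPM in ‘damaged’ libraries. These groups did not overlap with GV either, but the step was smaller, 2.13-fold in MII (log2 fold change 1.09 ± 0.14, FDR 1.1e-06) and 2.10-fold in ‘damaged’ oocytes (1.07 ± 0.14, FDR 1.5e-06). On library sizes, *SMC4* had a log2 fold change of 0.18 (FDR 0.248) in MII and 0.20 (FDR 0.206) in ‘damaged’ oocytes and was not called, whereas *SMC2* kept its call with 1.11 (FDR 6.9e-09) and 0.99 (FDR 3.3e-08). In TPM, the *SMC4* groups overlapped, with 141 to 180.3 in GV, 146 to 197 in MII and 124 to 195 in ‘damaged’ libraries. *SMC4* overlaps *TRIM59* over 2084 bases in RefSeq and the kit does not mark strand, so reads in the shared stretch cannot be told apart by strand.

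Of the subunits found in condensin I alone, *NCAPG* rose, *NCAPH* fell and *NCAPD2* did not pass the test. *NCAPG* (ENSSSCG00000008747, chromosome 8, 12759225 to 12807164), a HEAT-repeat subunit, had 217, 182, 201 and 184 CPM in GV, 775, 759, 615, 769.6 and 746 CPM in MII and 706, 693, 796, 649.8 and 678 CPM in ‘damaged’ libraries. All 10 matured libraries were above the GV libraries, with a 3.74-fold rise in MII (log2 fold change 1.90 ± 0.12, FDR 3.9e-11) and a 3.6-fold rise in ‘damaged’ oocytes (1.85 ± 0.12, FDR 6.1e-11). In RefSeq, *NCAPG* overlaps *DCAF16* over 4553 bases and *LCORL* over 287. *NCAPH* (ENSSSCG00000008125, chromosome 3, 46852388 to 46893008), the kleisin that closes the condensin I ring, went the other way. It had 144, 149.9, 147 and 155 CPM in GV, 45.2, 55.8, 99.9, 50.8 and 41.5 CPM in MII and 31.3, 46.2, 41.1, 69.5 and 86.8 CPM in ‘damaged’ libraries. The GV libraries were close together and the matured libraries were lower and more spread. The fall was to 0.373 of the GV level in MII (log2 fold change -1.42 ± 0.25, FDR 3.5e-05) and to 0.346 in ‘damaged’ oocytes (-1.53 ± 0.25, FDR 1.6e-05). *NCAPD2* (ENSSSCG00000000693, chromosome 5, 64136505 to 64167410), the other HEAT-repeat subunit, was scarce, with 9.87, 8.92, 8.44 and 7.48 CPM in GV, 5.12, 7.38, 7.14, 5.60 and 4.54 CPM in MII and 5.34, 5.99, 6.32, 7.17 and 6.996 CPM in ‘damaged’ libraries. The matured libraries lay below the GV libraries without overlap, yet the FDR was 0.0103 in MII (log2 fold change -0.56 ± 0.18) and 0.0370 in ‘damaged’ oocytes (-0.44 ± 0.18). *NCAPD2* passed in MII with summed estimated counts (-0.55, FDR 0.00993), without GV replicate 5 (-0.63, FDR 0.00749), without MII replicate 2 (-0.64, FDR 0.00692) or without MII replicate 3 (-0.63, FDR 0.00716), and with a filter of 10 CPM it passed in both comparisons (-0.89, FDR 0.000199 in MII and -0.75, FDR 0.000884 in ‘damaged’ oocytes). By library size, *NCAPD2* reached 10 CPM in GV libraries only. It thus met that filter through the group where it was higher, so its call under the filter adds no support. *SMC2* and *NCAPD2* overlap only non-coding genes in RefSeq.

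Among the subunits found in condensin II alone, *NCAPH2* fell, *NCAPG2* rose on the TMM scale and *NCAPD3* did not pass the test. The kleisin *NCAPH2* (ENSSSCG00000000965, chromosome 5, 222784 to 233491) had 2.78, 3.46, 4.02 and 5.51 CPM in GV libraries, from 54.4 to 133 gene counts. In MII libraries it had 1.31, 0.751, 0.991, 0.367 and 0.4302 CPM, from 6.89 to 13.9 counts, and in ‘damaged’ libraries 0.451, 0.902, 0.480, 0.634 and 0.530 CPM, from 5.93 to 11.9 counts. Every matured library was under every GV library, but at so few counts that differences among the matured libraries were not detectable. The level fell to 0.176 of GV in MII (log2 fold change -2.51 ± 0.34, FDR 1.9e-06) and to 0.158 in ‘damaged’ oocytes (-2.66 ± 0.35, FDR 1.4e-06), the largest falls of the 10 genes on both scales. *NCAPG2* (ENSSSCG00000028169, chromosome 18, 653182 to 713825), a HEAT-repeat subunit, had 21.4, 23.5, 25.1 and 20.8 CPM in GV, 45.7, 45.5, 37.6, 42.6 and 24.7 CPM in MII and 31.8, 42.8, 33.0, 45.7 and 29.8 CPM in ‘damaged’ libraries. MII replicate 5 lay within the GV range, while all ‘damaged’ libraries were above it. The log2 fold change was 0.75 ± 0.19 (FDR 0.00130) in MII and 0.67 ± 0.19 (FDR 0.00331) in ‘damaged’ oocytes, and it turned to -0.16 (FDR 0.439) and -0.20 (FDR 0.339) on library sizes. With a filter of 10 CPM, *NCAPG2* had 0.42 (FDR 0.0431) and 0.36 (FDR 0.0819), and without ‘damaged’ replicate 2 or 4 the call in ‘damaged’ oocytes was lost (0.61, FDR 0.0108 and 0.59, FDR 0.0121). *NCAPD3* (ENSSSCG00000022192, chromosome 9, 60712416 to 60785907), the second HEAT-repeat subunit of this form, had 9.95, 10.6, 13.1 and 20.6 CPM in GV, 11.9, 8.56, 12.5, 7.66 and 9.03 CPM in MII and 11.06, 9.32, 18.3, 10.5 and 14.3 CPM in ‘damaged’ libraries. Here the groups overlapped, GV replicate 5 was the highest library, and the log2 fold change was -0.44 ± 0.24 (FDR 0.107) in MII and -0.08 ± 0.23 (FDR 0.771) in ‘damaged’ oocytes. With a filter of 10 CPM, *NCAPD3* passed in MII (-0.78, FDR 0.00806). By library size, *NCAPD3* reached 10 CPM in every GV library but in few matured libraries. *NCAPD3* thus met that filter through the group where it was higher, so its call under the filter adds no support. Without GV replicate 5 the value in ‘damaged’ oocytes was 0.15 (FDR 0.553) and without ‘damaged’ replicate 2 it was 0.02 (FDR 0.955). *NCAPD3* overlaps *JAM3* over 26564 bases in RefSeq, so its counts are uncertain where transcripts of the 2 genes share sequence.

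Both topoisomerase II genes rose, with the largest log2 fold changes of the 10 genes in both comparisons and on both scales, though their 95% intervals overlap that of *SMC2*. *TOP2A* (ENSSSCG00000017473, chromosome 12, 22001300 to 22028452) had 115, 92.9, 97.7 and 91.1 CPM in GV, 464, 559.9, 522, 559 and 393 CPM in MII and 398, 509.5, 415, 472 and 449 CPM in ‘damaged’ libraries. Its lowest matured library, MII replicate 5, was over 3 times its highest GV library. The rise was 5.02-fold in MII (log2 fold change 2.33 ± 0.13, FDR 2.1e-11) and 4.53-fold in ‘damaged’ oocytes (2.18 ± 0.13, FDR 4.8e-11). *TOP2B* (ENSSSCG00000011213, chromosome 13, 12507738 to 12575042) had 677, 564, 585 and 557 CPM in GV, 2646, 2619, 2984, 3288 and 2185 CPM in MII and 2259.8, 2996, 2634, 2995 and 2314 CPM in ‘damaged’ libraries. It was the most abundant member in each group, and rose 4.58-fold in MII (log2 fold change 2.20 ± 0.14, FDR 4.5e-11) and 4.41-fold in ‘damaged’ oocytes (2.14 ± 0.14, FDR 6.8e-11). In MII, 97.9% of all genes tested had a lower log2 fold change than *TOP2A* and 97.1% a lower one than *TOP2B*. On library sizes both kept their calls, with log2 fold changes of 1.41 and 1.28 in MII and 1.30 and 1.27 in ‘damaged’ oocytes.

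**Figure D2:**
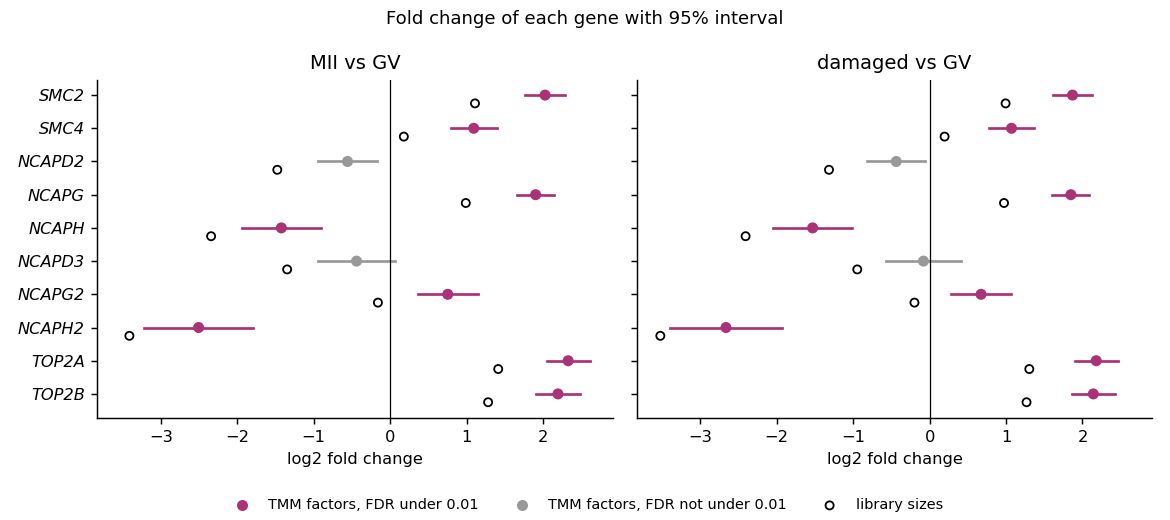
Log2 fold change of each gene (x axis) in MII against GV (left) and ‘damaged’ against GV (right), with filled points for TMM factors (purple at FDR under 0.01, grey otherwise), 95% intervals as lines and open circles for library sizes. Open circles lie about 1 unit to the left of the filled points, and *NCAPG2* crosses 0 between the scales.

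MII and ‘damaged’ oocytes were compared to ask whether oocytes without a polar body differ in these genes. None of the 10 genes passed an FDR of 0.01 with limma, edgeR or DESeq2, and none had an unadjusted p under 0.05 with limma, where 194 of the 13224 genes tested had one and 0% of all genes passed. The lowest FDR among the members was 1.00. Log2 fold changes of MII against ‘damaged’ lay between -0.36 (*NCAPD3*) and 0.16 (*NCAPH2*), and the 2 groups overlapped for 10 of 10 genes, where MII was above ‘damaged’ without overlap for 0.0983% of all genes and below for 0.174%. The 95% intervals were narrow for abundant genes, from -0.17 to 0.28 for *NCAPG*, -0.21 to 0.32 for *TOP2B*, -0.11 to 0.41 for *TOP2A* and -0.08 to 0.40 for *SMC2*. For scarce genes they were wide, from -0.72 to 1.04 for *NCAPH2* and -0.85 to 0.13 for *NCAPD3*, so differences of up to about 1 log2 unit in these genes could not have been told from none.

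Ratios within a library do not depend on the scaling between libraries. The summed TPM of the condensin I subunits (*NCAPD2*, *NCAPG* and *NCAPH*) over that of the condensin II subunits (*NCAPD3*, *NCAPG2* and *NCAPH2*) was 20.5, 17.2, 15.9 and 13.7 in GV libraries, 25.9, 28.1, 26.6, 30.7 and 43.0 in MII libraries and 31.8, 26.2, 30.1, 24.1 and 32.4 in ‘damaged’ libraries. The mean was 16.8 ± 2.87 (SD, n = 4), 30.8 ± 7.01 (SD, n = 5) and 28.9 ± 3.62 (SD, n = 5), and neither matured group overlapped GV. This does not show a rise of condensin I as a whole. From GV to MII, mean TPM went from 147 to 266 for *NCAPG*, but from 142 to 27.3 for *NCAPH* and from 4.11 to 1.38 for *NCAPD2*. Each condensin II subunit had a lower mean TPM in MII than in GV. For *NCAPG2* the TPM ranges overlapped (6.94 to 9.90 in GV and 4.78 to 8.55 in MII), and it rose on the TMM scale (log2 fold change 0.75). Unlike the ratios, these means are compared between libraries and depend on the scaling. *SMC2* relative to *SMC4* was 0.558, 0.542, 0.504 and 0.472 in GV, 1.03, 1.19, 1.06, 1.00 and 0.730 in MII and 0.818, 0.987, 0.729, 1.24 and 0.807 in ‘damaged’ libraries. The means of this ratio were 0.519 ± 0.0386, 1.00 ± 0.168 and 0.917 ± 0.205, and matured libraries ran from 0.729 to 1.24. These are ratios of estimated levels, not of counted molecules. *TOP2A* relative to *TOP2B* was 0.178 ± 0.00285 in GV, 0.196 ± 0.0190 in MII and 0.183 ± 0.0163 in ‘damaged’ libraries. The MII libraries were all above the GV libraries by a small margin (0.188, 0.229, 0.187, 0.182 and 0.193 against 0.182, 0.177, 0.179 and 0.175), whereas ‘damaged’ libraries overlapped them. The mean log2 ratio differed from GV by 0.13 in MII and 0.04 in ‘damaged’ oocytes, and the latter turned to -0.01 without ‘damaged’ replicate 5. *NCAPG* and *NCAPH*, which form 1 complex together, had a ratio added after their values were seen. It was 1.05 ± 0.119 in GV, 11.2 ± 3.75 in MII and 11.8 ± 5.04 in ‘damaged’ libraries, and the lowest matured library, MII replicate 3, had 4.90.

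**Figure D3:**
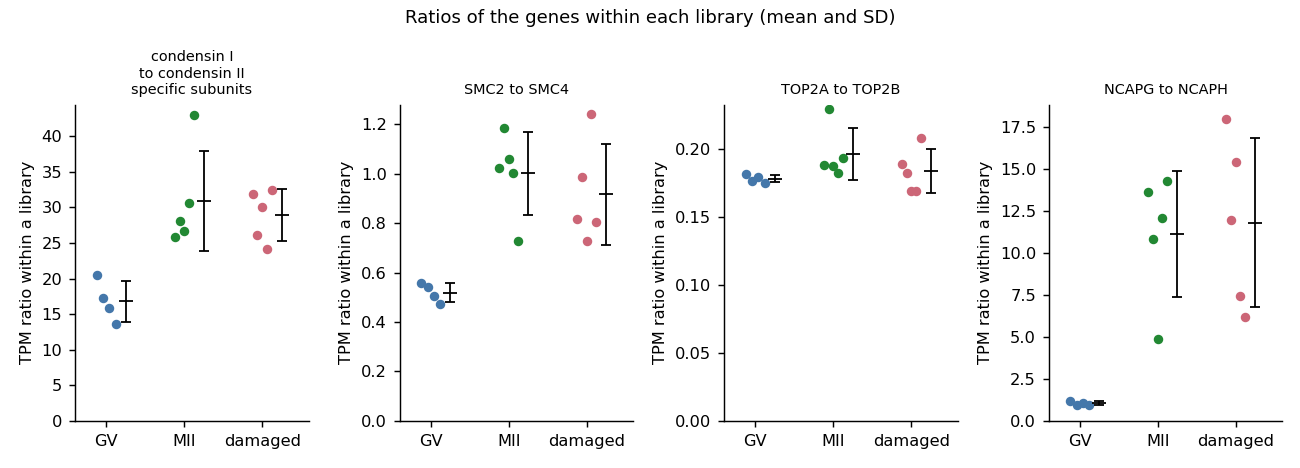
TPM ratio within each library (y axis) for 4 pairs of genes or gene sums in GV, MII and ‘damaged’ oocytes, with 1 point per library and the mean ± SD beside it in black. MII and ‘damaged’ points sit above GV in the condensin, *SMC2* to *SMC4* and *NCAPG* to *NCAPH* panels, and the 3 groups lie close together for *TOP2A* to *TOP2B*.

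As shares of the summed TPM of the 8 condensin genes, *NCAPH* had the largest fall in percentage points. It held 25.9% ± 2.04 (SD, n = 4) in GV, 4.38% ± 2.09 (SD, n = 5) in MII and 4.28% ± 1.86 (SD, n = 5) in ‘damaged’ libraries. *NCAPG* went from 27.0% ± 1.23 to 42.7% ± 2.14 and 43.2% ± 1.76, and *SMC2* from 14.7% ± 1.45 to 25.4% ± 2.07 and 23.9% ± 2.36. *SMC4* held 28.4% ± 0.985, 25.7% ± 2.87 and 26.7% ± 3.26, with overlapping ranges. *NCAPD2* held 0.756% ± 0.0611, 0.221% ± 0.0533 and 0.248% ± 0.0387, and the 3 condensin II subunits held at most 1.88% each in any library. *NCAPH2* went from 0.529% ± 0.171 to 0.0434% ± 0.0222 and 0.0358% ± 0.0126, a larger fall than that of *NCAPH* relative to its own share in GV.

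Isoform usage was examined for the 6 genes that had at least 2 isoforms past the filters, *SMC2*, *SMC4*, *NCAPD2*, *NCAPG*, *NCAPH* and *TOP2B*. Usage is the share of a gene's TPM that 1 isoform holds, and a changed isoform had an FDR under 0.01 and a difference in fraction over 0.1. Of 16 isoforms tested, 5 changed in MII against GV and 4 in ‘damaged’ against GV, where 29.9% and 30.1% of all isoforms tested changed. They belonged to *NCAPH*, *SMC2* and, in MII, *SMC4*. Of 15 isoforms tested between MII and ‘damaged’, 0 changed with the DEXSeq model and 0 had an unadjusted p under 0.05, against 0.00884% of all isoforms that changed, and diffSplice of limma also called 0. Kallisto divides reads among isoforms that share sequence, so the counts per isoform are estimates.

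*NCAPH* lost its main GV isoform. ENSSSCT00000085718.1, annotated with 2612 bases, held 56.8, 71.5, 49.1 and 54.0% of *NCAPH* in GV replicates 1, 2, 4 and 5, with 1481 to 2033 estimated counts, and 51.8% in GV replicate 3. It was at 0 in all 5 MII and all 5 ‘damaged’ libraries, where *NCAPH* had enough counts that 3 counts would be a share of 0.224 to 0.714%, a limit for counting error only. The difference was -57.9 percentage points in both comparisons (FDR 3.0e-60 and 4.3e-58). ENSSSCT00000008901.4 (2735 bases) held 42.8, 20.2, 39.7 and 24.2% in GV, 80.6, 61.2, 53.1, 60.3 and 54.6% in MII and 73.9, 56.6, 64.4, 71.4 and 86.8% in ‘damaged’ libraries. Its share rose by 30.2 percentage points in MII (FDR 0.000812) and 38.9 in ‘damaged’ oocytes (FDR 5.0e-05), but not with diffSplice (FDR 0.659 and 0.850) and, in MII, not in the 8 libraries named alike (24.0 points, FDR 0.0102). ENSSSCT00000074490.2 (2496 bases) went from 10.4% ± 8.84 (SD, n = 4) to 38.0% ± 11.01 (SD, n = 5) in MII (FDR 0.0205) and 29.4% ± 11.3 (SD, n = 5) in ‘damaged’ oocytes (FDR 0.0802).

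On the TMM scale, most of the fall in the mean of *NCAPH* as a gene lay in the estimated counts of this lost isoform. It had 84.3 ± 14.2 CPM in GV oocytes. The other 2 isoforms together had 64.5, 42.5, 75.6 and 69.7 CPM in GV, 46.4, 56.4, 101, 51.2 and 41.9 CPM in MII and 32.0, 46.4, 41.6, 71.3 and 90.3 CPM in ‘damaged’ libraries. Their groups overlapped, with means of 63.0 ± 14.4, 59.3 ± 23.7 and 56.3 ± 23.9 CPM, or 0.941 and 0.893 of the GV mean. MII replicate 3 raised the MII mean. The remaining MII libraries, at 41.9 to 56.4 CPM, lay below GV replicates 1, 4 and 5. Scaled by library size alone, the other 2 isoforms had means of 98.3 ± 24.5, 49.5 ± 22.1 and 48.5 ± 22.9 CPM, or 0.503 and 0.493 of GV. This sum was chosen after its values were seen and was not tested.

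*SMC2* shifted between a pair of isoforms. ENSSSCT00000064803.3 (6231 bases) held 46.9, 58.9, 57.3 and 55.9% of *SMC2* in GV, 34.5, 32.3, 33.0, 38.7 and 27.9% in MII and 30.03, 38.0, 32.3, 32.3 and 33.2% in ‘damaged’ libraries. ENSSSCT00000005946.4 (8288 bases) held 52.7, 40.8, 42.2 and 44.1%, 65.4, 67.7, 66.9, 61.1 and 72.1% and 70.0, 62.0, 67.6, 67.7 and 66.7%. It was the minor isoform in 3 of 4 GV libraries and the major one in all 10 matured libraries, with no overlap between GV and either matured group. In GV replicate 3, left out for its depth, the pair held 80.2% and 19.5%. The differences were -21.5 and 21.7 percentage points in MII (FDR 2.3e-08 for both) and -21.6 and 21.9 in ‘damaged’ oocytes (FDR 3.2e-10 for both). In CPM both isoforms were higher after maturation, ENSSSCT00000064803.3 with 113 ± 9.28 in GV and 288 ± 45.6 in MII, and ENSSSCT00000005946.4 with 128 ± 35.8 and 773 ± 87.0.

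*SMC4* had 7 isoforms with counts, of which 4 passed the filters. ENSSSCT00000056723.3 (4158 bases) held 44.3, 44.8, 46.2 and 41.8% in GV and 18.03, 28.4, 31.8, 22.9 and 28.2% in MII libraries, a difference of -18.4 percentage points (FDR 4.6e-06). In ‘damaged’ libraries it held 40.8, 27.5, 41.8, 17.4 and 17.1%, a difference from GV of -15.4 points (FDR 0.0528). The ‘damaged’ libraries spread widely, with the highest just under the lowest GV library, and MII and ‘damaged’ differed by -3.07 points (FDR 1.00). With diffSplice the call in MII was lost (FDR 0.0273). The 4 *SMC4* isoforms have 4070 to 4167 bases, and the other 3 varied widely among GV libraries, where ENSSSCT00000048844.2 held 16.0 to 45.6%.

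*TOP2B*, *NCAPG* and *NCAPD2* had no isoform past the thresholds. The 2 *TOP2B* isoforms held 37.5% ± 5.04 and 62.5% ± 5.04 in GV and 36.3% ± 2.77 and 63.7% ± 2.77 in MII libraries (difference 1.18 points, FDR 0.796). The main *NCAPG* isoform held 58.3% ± 7.76 in GV and 53.1% ± 3.10 in MII libraries (FDR 0.350). For *NCAPD2*, ENSSSCT00000000755.3 held 80.3% ± 3.44 in GV, 68.0% ± 10.3 in MII and 68.8% ± 3.42 in ‘damaged’ libraries, with an FDR of 0.0579 and 0.0108 at 27.0 to 168 counts per isoform and GV library. *NCAPG2*, *NCAPH2* and *TOP2A* each had 1 transcript with counts and could not be tested, and *NCAPD3* had 1 isoform with 95.5% or more in each library. Without GV replicate 5, 7 isoforms changed in ‘damaged’ against GV oocytes, against 4 with it.

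**Figure D4:**
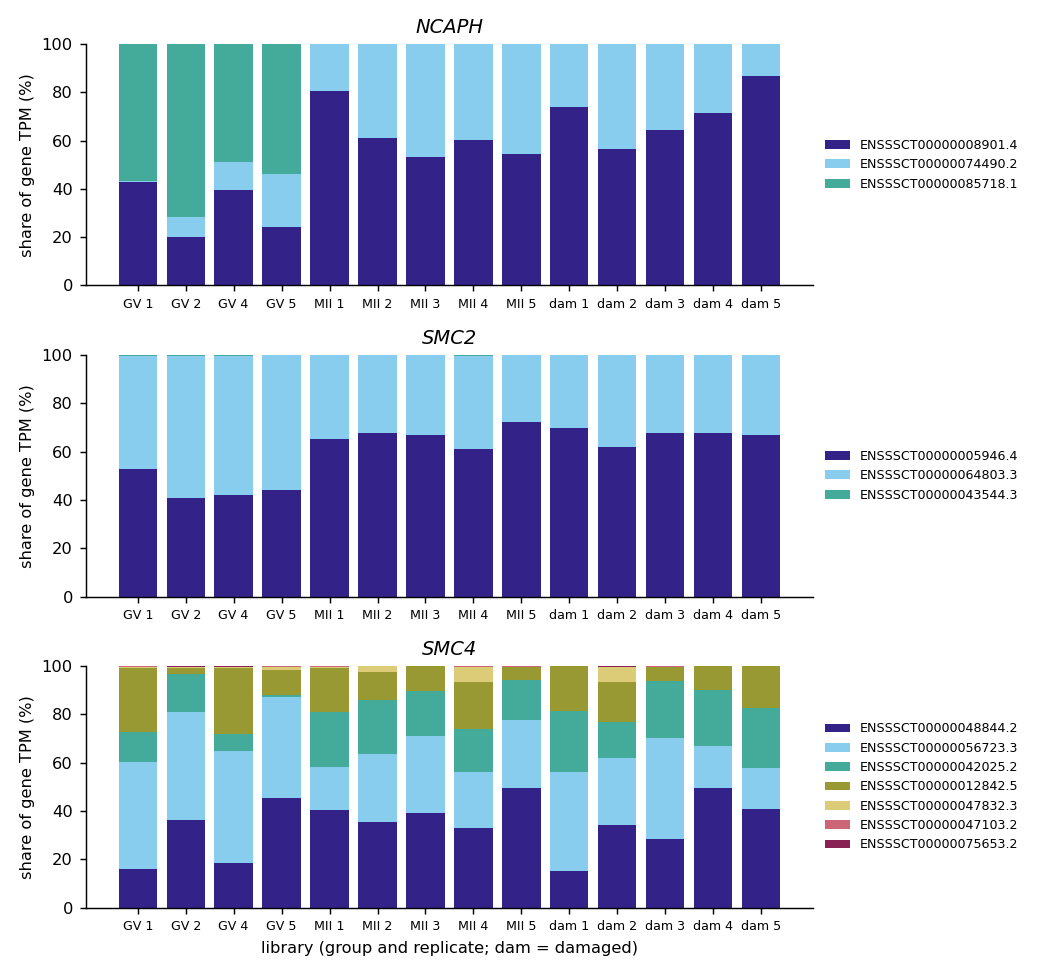
Share of each isoform in the TPM of *NCAPH*, *SMC2* and *SMC4* (y axis, percent, stacked to 100) in 4 GV, 5 MII and 5 ‘damaged’ libraries (x axis, dam for ‘damaged’). For *NCAPH*, ENSSSCT00000085718.1 (top segment of the GV bars) is absent from the 10 matured libraries, and for *SMC2* the lower segment, ENSSSCT00000005946.4, is larger in them.

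Genes that act with these complexes were described from lists, each read against the 28.2% of all genes that rose and the 34.2% that fell in MII. In ‘damaged’ oocytes these shares were 28% and 33.4%. Counts on library sizes are read against the shares on that scale, 10.9% and 57.5% in MII and 11.2% and 56% in ‘damaged’ oocytes. Of 17 condensin regulators and partners, 12 were measured. In MII against GV 5 of them rose and 2 fell, and in ‘damaged’ against GV also 5 and 2, with *PPP2CA* (0.39, FDR 0.00950) past the threshold in place of *TTK* (0.50, FDR 0.0177), both named after their values were seen. Their median log2 fold change was 0.49 in MII and 0.44 in ‘damaged’ oocytes. *CCNB1*, the cyclin of the M-phase kinase, had 893 ± 218 CPM in GV and 5311 ± 491 CPM in MII (log2 fold change 2.599 ± 0.143), and its kinase *CDK1* had 417 ± 247 and 24.2 ± 6.41 CPM (-3.96 ± 0.29). *KIF4A*, a chromosome-bound motor that works with condensin I, and *AURKB*, the kinase of the chromosomal passenger complex, rose (2.06 and 1.40), *NUSAP1*, a spindle protein, rose by 0.63, and *PLK1*, a kinase that acts on condensin II, fell (-1.19). On library sizes, 2 of the 12 rose and 6 fell in MII (2 and 5 in ‘damaged’), and *NUSAP1* turned to -0.29 and *AURKB* was at 0.48 (FDR 0.0439).

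Of 16 topoisomerase II partners and other topoisomerases, 14 were measured, of which 7 rose and 4 fell in MII and 6 rose and 3 fell in ‘damaged’ against GV oocytes, with a median of 0.44 and 0.36. *RMI1* and *BLM*, which dissolve linked DNA together with topoisomerase III, rose from 47.2 ± 12.1 to 347 ± 29.7 CPM (log2 fold change 2.91) and from 55.0 ± 10.8 to 326 ± 47.2 CPM (2.58) in MII. *ERCC6L*, a translocase of ultrafine DNA bridges, rose by 2.15. Other topoisomerases fell, with -4.68 for *TOP3A*, the partner of *RMI1* and *BLM*, -3.68 for the mitochondrial *TOP1MT* and -3.26 for *TOP3B*. *TOP3A* and *TOP3B* had 0.226 and 0.182 CPM in MII, near 3 counts per library, so the size of these falls is uncertain. On library sizes, 5 of the 14 rose and 7 fell in MII (5 and 8 in ‘damaged’), and these 6 genes kept their direction. Of all genes, 10.9% rose and 57.5% fell on that scale in MII (11.2% and 56% in ‘damaged’).

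Among 13 genes of other SMC complexes, 11 were measured, and 10 of them rose and 0 fell in both comparisons with limma, at a median of 1.60 in MII and 1.52 in ‘damaged’ oocytes. *SMC1B*, the meiotic cohesin ATPase, had 334 ± 72.9 CPM in GV and 1699 ± 160 CPM in MII (log2 fold change 2.37), *SMC6* of the SMC5/6 complex rose by 2.14 and its loader *SLF1* by 2.06. *SMC1A* (1.06), *NSMCE4A* (0.77) and *RAD50* (0.75) rose least among those called. *NSMCE1* was the exception with -0.26 (FDR 0.334). On library sizes, 7 rose and 1 fell in both comparisons, and *RAD50* and *NSMCE4A* turned to -0.17 and -0.14 in MII. Of all genes, 10.9% rose and 57.5% fell on that scale in MII (11.2% and 56% in ‘damaged’). Between MII and ‘damaged’ oocytes, 0 genes of any of the 3 lists passed with limma.

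For the shared ATPases and the topoisomerases, the genes with the most similar levels were sought among 11022 genes with a symbol, by the root mean square difference in log2(TPM + 1) over the 14 libraries. *SMC2* was nearest to *RBBP8* (0.114) and *ESF1* (0.129), *SMC4* to *STRADB* (0.172) and *ATP5F1C* (0.216), *TOP2A* to *SKP2* (0.127) and *CKAP5* (0.173), and *TOP2B* to *KIF20B* (0.179) and *USP33* (0.187). *SKP2*, for example, had mean levels of 40.9, 103 and 95.3 TPM in GV, MII and ‘damaged’ oocytes, beside 41.7, 102 and 95.2 TPM for *TOP2A*. These are likenesses of level over libraries that mostly differ by stage.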

How the data were processed

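Per the labels, SMART-Seq HT cDNA of poly(A) RNA was sequenced as single-end reads of 75 bases, and the authors trimmed these and quantified transcripts with Kallisto (kallisto 0.43 in the submitters' processing notes, Sscrofa11.1). The deposited estimated counts and TPM values per transcript are Kallisto's output, and the deposited gene table holds estimated counts scaled by length with tximport. The 7 columns of the gene table that add up to another library's total were not used, and gene counts for all 15 libraries were rebuilt from the transcript files through transcript-to-gene groups that match the 8 other columns (14401 of 14407 genes with at least 10 counts, largest difference 0.000118%). Totals and annotation limit scarce genes and isoforms most.

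Genes were tested with limma 3.58.1 (voom, TMM factors from edgeR 4.0.16, filterByExpr) in R 4.3.3, in 1 fit of 14 libraries. GV replicate 3, with the lowest total, was left out because the study removed 1 GV library of low depth. FDR is the Benjamini-Hochberg adjusted p over the 13224 genes tested, with a threshold of 0.01 and, for a DEG, an absolute log2 fold change over 2. Isoforms used the DEXSeq model as a likelihood ratio test in DESeq2 1.42.0 on rounded estimated counts, with gene TPM over 1, isoform fraction over 0.05 and a difference over 0.1. The scripts were tested on simulated data. Pools of the 3 groups came from the same 5 collections, so libraries of different groups can share a collection. Alternatives were library sizes, DESeq2 size factors, edgeR and DESeq2 tests, all 5 GV libraries, other filters, summed counts, diffSplice, the replicate number as a block and each library left out. The 10 genes were taken by symbol. From each list, the 3 highest and 3 lowest log2 fold changes in MII against GV among genes past the threshold were named, and *NSMCE1* was named after its values were seen. Of the listed genes, 13 had no matching symbol. The members and lists were chosen with earlier results of these data known. Coordinates are from RefSeq on Sscrofa11.1, and no sequences are shown. The 95% intervals of fold changes come from the spread between libraries, and floors of 3 counts cover counting error only.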

Additional observations from a re-analysis of the deposited data

Results flagged for a closer look

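In 39 groups of libraries (the genes and most of the ratios, by stage), 4 had 1 library far from the rest, where chance alone gives about 1 in 20. All 4 were MII libraries. *NCAPG* in MII replicate 3 had 615 CPM, while the other 4 libraries had 746 to 775 CPM. *NCAPH* in the same library had 99.9 CPM, above 41.5 to 55.8 CPM in the others. The ratio of condensin I to condensin II subunits was 43.0 in MII replicate 5, against 25.9 to 30.7 in the others. The ratio of *TOP2A* to *TOP2B* was 0.229 in MII replicate 2, against 0.182 to 0.193 in the others. Each of these libraries lay on the same side of the GV libraries as the other MII libraries did.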

How the results depend on the processing

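Library scaling moved the most results. On library sizes alone, 4 of the 10 genes fell in either comparison with GV, and as DEGs 0 rose and 2 fell in either, and *NCAPG2* reversed to -0.16 in MII and -0.20 in ‘damaged’ oocytes. With a filter of 10 CPM, 0 genes were DEGs that rose and 0 DEGs that fell in either comparison. *NCAPH2* is under that filter. In MII against GV, *NCAPD2*, *NCAPD3* and *NCAPG2* went from -0.56, -0.44 and 0.75 to -0.89, -0.78 and 0.42 with it. All were lower by a similar amount. The cause was not tested otherwise. With diffSplice, 3 isoforms changed in MII against GV instead of 5. With 1 library left out in turn, 4 to 7 isoforms changed in ‘damaged’ against GV, and 7 without GV replicate 5. For *NCAPD3* in ‘damaged’ oocytes the log2 fold change ranged from -0.23 to 0.15, above 0 without GV replicate 5 and, at 0.02, without ‘damaged’ replicate 2. The difference from GV in the mean log2 ratio of *TOP2A* to *TOP2B* ranged from 0.0757 to 0.158 in MII and from -0.0082 to 0.0673 in ‘damaged’ oocytes. With all 5 GV libraries it was 0.209 and 0.114. For *SMC2* to *SMC4* it ranged from 0.868 to 1.04 in MII and from 0.682 to 0.873 in ‘damaged’ oocytes. In the 8 libraries that both files name alike, a choice made after seeing the data, the difference in MII was 1.15 for condensin I to condensin II subunits, against 0.87 in all 14 libraries, and 0.0828 for *TOP2A* to *TOP2B*, against 0.133. Of the values of single genes and isoforms under alternatives, 568 kept their direction and their side of the threshold, 12 lost a call, 11 gained one and 4 reversed. The causes were not tested. The genes among these were *SMC4*, *NCAPD2*, *NCAPD3* and *NCAPG2*.

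Same-numbered libraries were not treated as pairs in the main fit. The correlations of their deviations from the group means ran from -0.0858 to 0.321 over 13 pairs, against -0.276 to 0.268 for other pairs. Still, 9 of 14 libraries matched best with one of their own number. Whether same-numbered libraries share a collection was not tested further. With the replicate number as a block, 6 of the 10 genes rose and 2 fell in both comparisons with GV, as without the block, and no member's call changed.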
